A study of Mus musculus with 6 samples.

Results

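Amino acid transporter genes of 7 solute carrier families were followed in mouse colon epithelium of animals fed ursodeoxycholic acid (UDCA), a water-loving bile acid used in medicine against liver disease. The members were all genes whose single platform symbol begins with Slc1a, Slc3a, Slc6a, Slc7a, Slc36a, Slc38a or Slc43a and a number, without Slc7a11, each represented by its brightest probe set. This gave 42 of the 12393 named genes on the array, measured by 66 probe sets: 6 in Slc1, 2 in Slc3, 15 in Slc6, 12 in Slc7, 6 in Slc38, 1 in Slc43 and 0 in Slc36. The rule goes by name and not by substrate, so it also takes in carriers of taurine, creatine, serotonin and other transmitters.

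The UDCA group was fed a diet with 0.4% UDCA and the control group a standard diet, with 3 arrays per group, each hybridised with the pooled RNA of 2 animals. Pools are named 1+2, 3+4 and 5+6 after their animals. The sources used here give no strain, age or length of feeding. The design text counts 6 samples per group while naming 3, and a label names IEC-6, a rat intestinal cell line. Titles, source and organism name mouse colon epithelium, and the arrays are described here as that. P-values measure only the spread between these pools.

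Deposited median signals were 68.1 to 87.2 on the UDCA arrays and 67.4 to 83.85 on the control arrays, so all values below are quantile normalised signals unless said otherwise. Only the upper 50% of probe sets by mean level were tested, from a signal of about 75.7, and this limit is called the filter. Log2 fold changes are differences of mean log2(signal + 16), UDCA minus control, which understates the change of dim genes. Adjusted p-values are Benjamini-Hochberg values over all probe sets tested. All 10 colonocyte markers lay above the signal filter, among them Car1 and Slc26a3, which go with colon surface cells. None of the markers found for neurons and glia (9), fibroblasts (7), endothelium (6), smooth muscle (6) or T and NK cells (8) did, and 1 of 5 for B and plasma cells (Sdc1, which epithelium also expresses) and 1 of 7 for myeloid cells (Cd14) did. In RNA of a whole tissue fraction, fewer cells of a type and less RNA per cell cannot be told apart.

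Epithelial cells take up amino acids through sodium-coupled carriers, which concentrate their substrates, and through exchangers, which trade one amino acid for another across the membrane. Many exchangers of the Slc7 family work only as a pair, in which a light chain of Slc7 carries the substrate and a heavy chain of Slc3 brings the pair to the cell surface. In the intestine some of these carriers sit in the brush border and others in the basolateral membrane, so that dietary amino acids cross the cell while the epithelium also draws glutamine for its own use.

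Of the 42 transporter genes 16 lay above the signal filter and 26 below it. None of the 16 passed limma at an adjusted p of 0.05, where 0.00884% of all 11313 probe sets did, a single one, for the apolipoprotein gene Apoc2. The smallest adjusted p of a transporter gene was 0.314. At an unadjusted p under 0.05 there were 6 of 16 (37.5%), against 13.7% of all probe sets. With the probe sets of each transporter gene averaged there were 2 of 15, against 1539 of 11301 probe sets. As deposited there were 3 of 16, against 840 of 11313 probe sets. The 6 genes found after quantile normalization were the same 6 whose groups did not overlap. In 4 of them (25% of 16) all UDCA pools lay below all control pools, Slc1a1, Slc1a5, Slc6a14 and Slc38a10, against 8.34% of all probe sets. In the other 2 (12.5%), Slc7a4 and Slc7a6, all UDCA pools lay above, against 10.9% of all probe sets. The groups of Slc7a4 and Slc38a10 were also apart in the signals as deposited, and those of the other 4 overlapped there. This left 2 of 16 apart as deposited (12.5%), against 7.7% of all probe sets on that scale. The median log2 fold change of the 16 genes, UDCA over control, was 0.07, beside 0.01 for all probe sets tested, and 9 were positive and 7 negative. Without regard to sign the median was 0.25, beside 0.13 for all probe sets. An exact permutation test of 3 against 3 pools cannot go below p = 0.1.

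**Figure D1:**
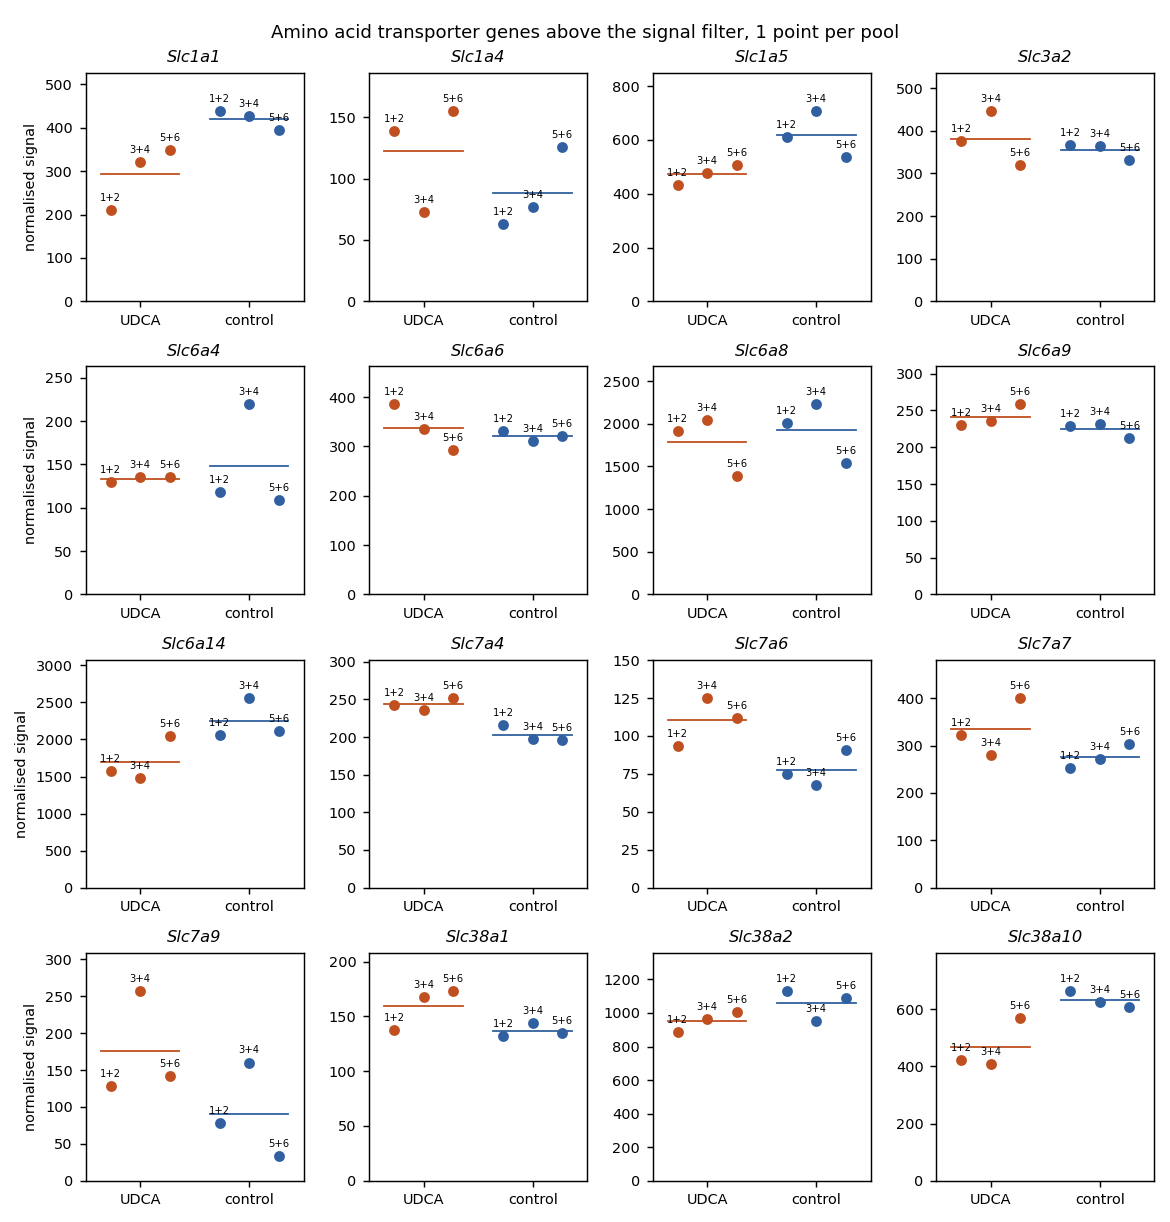
Normalised signal (y axis, linear from 0) of the 16 transporter genes above the signal filter in UDCA and control pools, 1 point per pool labelled by its animals, with a line at the group mean. The points of Slc1a1, Slc1a5, Slc6a14 and Slc38a10 lie lower in all UDCA pools than in any control pool, and those of Slc7a4 and Slc7a6 lie higher.

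**Figure D2:**
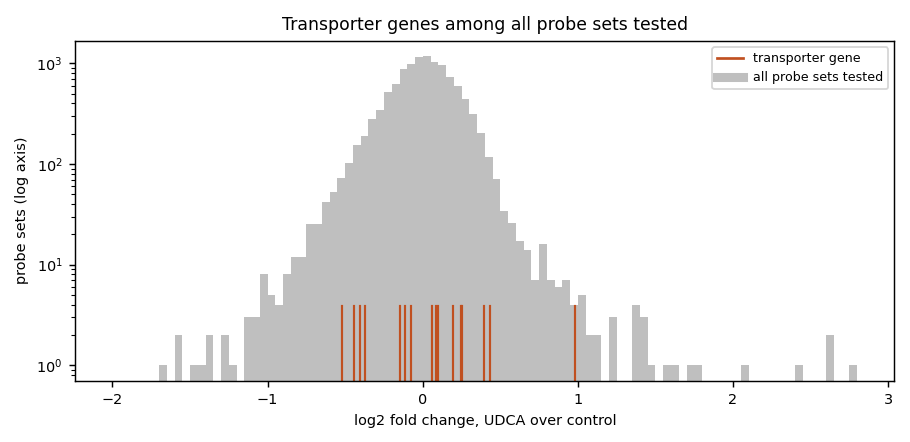
Histogram of the log2 fold change, UDCA over control, of the 11313 probe sets tested (grey, counts on a log axis), with the 16 transporter genes as coloured lines. The transporter genes run from -0.52 for Slc1a1 to 0.98 for Slc7a9.

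The 2 largest differences among the transporter genes belonged to the subunits of the brush border exchanger for cystine and basic amino acids, whose loss in humans causes cystinuria. Slc3a1 encodes its heavy chain and Slc7a9 its light chain. Because both subunits differed in the same direction, the 250 bases before the start of each gene are shown, from RefSeq in build GRCm38.p6. Both windows lie on the plus strand, that of Slc3a1 at chr17:85028097-85028346 and that of Slc7a9 at chr7:35448842-35449091, the first of 2 RefSeq windows for that gene. Capitals mark matches to the motifs named after the sequences.
Slc3a1: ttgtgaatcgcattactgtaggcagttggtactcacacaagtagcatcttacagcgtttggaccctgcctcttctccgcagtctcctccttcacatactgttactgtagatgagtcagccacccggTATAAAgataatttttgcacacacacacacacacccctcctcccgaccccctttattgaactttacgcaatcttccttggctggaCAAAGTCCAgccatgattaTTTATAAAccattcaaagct
Slc7a9: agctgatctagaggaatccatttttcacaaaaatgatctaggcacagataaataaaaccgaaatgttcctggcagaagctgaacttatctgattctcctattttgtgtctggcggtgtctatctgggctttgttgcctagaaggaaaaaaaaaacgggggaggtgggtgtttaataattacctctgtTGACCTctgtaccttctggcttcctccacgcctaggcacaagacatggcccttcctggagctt

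Motifs were searched on both strands, without regard to overlap. They were TGATGNAA (core of the amino acid response element), CACGTG (E-box), GTTAAT (HNF1 core) and AGGTCA (nuclear receptor core). Added after the sequences had been seen were CAAAGTCCA, an HNF4 site, and the TATA box searched as TATAAA. Shares over all windows therefore do not tell how unusual the matches to these added motifs are. The Slc3a1 window held CAAAGTCCA starting 39 bases before the gene start, a match found in 0.384% of the 32851 RefSeq windows of this length. It also held TATAAA, found in 12.4% of windows, starting 124 and 18 bases before the start and on the other strand 20 bases before. Of the motifs searched, the Slc7a9 window held an exact match to AGGTCA only, on the minus strand 63 bases before the start. That match was found in 14.0% of windows. Inexact matches were not searched. Of all windows 3.45% held TGATGNAA, 6.02% CACGTG and 6.43% GTTAAT, and neither of these windows did. Among the 46 windows of the 27 transporter genes with a RefSeq window, TGATGNAA was found in 2, both of Slc7a7. The GC content was 45.6% for Slc3a1 and 44.4% for Slc7a9, beside a median of 52.4% over all windows. These matches describe letters and not binding.

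Slc3a1 had signals of 99.5, 105.8 and 41.2 in UDCA pools 1+2, 3+4 and 5+6, and of 12.5, 13.7 and 38.5 in the control pools of the same names. Equal pool numbers were not taken to pair the samples. For Slc3a1, UDCA pools 1+2 and 3+4 lay far above all control pools, while UDCA pool 5+6 lay close to control pool 5+6. Its mean of 82.2 ± 35.6 in UDCA pools and 21.6 ± 14.7 in control pools (SD, n = 3 each) gave a log2 fold change of 1.37, but the gene lay below the filter. With no filter its limma p was 0.00606 and its adjusted p 0.398. As deposited, UDCA pool 5+6 had 36.1 and control pool 5+6 had 43.2, so the groups overlapped there.

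Slc7a9 had signals of 127.8, 257.5 and 141.6 in the UDCA pools and of 78.0, 160.2 and 32.9 in the control pools. Control pool 3+4 lay among the UDCA pools, and control pool 5+6 was the lowest of all. The log2 fold change was 0.98 (SE 0.43, 95% interval -0.01 to 1.97; limma adjusted p = 0.367), and over the 15 alternatives in which it was tested the adjusted p ran from 0.0455 to 0.699. On the values as deposited Slc7a9 passed (limma adjusted p = 0.0455), where 0.451% of all probe sets passed with a higher level in UDCA pools. On that scale the arrays are not at one level. The groups of Slc7a9 overlapped there too, with 124.4, 302.4 and 129.4 in UDCA pools and 69.5, 158.2 and 36.9 in control pools. Without control pool 5+6 the log2 fold change was 0.51 (limma adjusted p = 0.448), and without control pool 3+4 it was 1.44 (limma adjusted p = 0.581).

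Small intestine enterocytes carry this exchanger in their brush border, and 2 of 6 markers of these cells lay above the filter. Fabp6, the ileal bile acid binding protein, had 966.8, 430.7 and 271.0 in UDCA pools and 151.5, 235.3 and 221.5 in control pools, so that every UDCA pool was higher (log2 fold change 1.22; limma adjusted p = 0.314). Fabp2, the intestinal fatty acid binding protein, had 1737.0, 1491.7 and 1180.5 in UDCA pools and 226.4, 390.7 and 1671.6 in control pools (1.42; limma adjusted p = 0.357). Fabp2 and Slc3a1 thus shared a high control pool 5+6, while Slc7a9 was lowest there. The other 4 markers, Apoa1, Apoa4, Lct and Mttp, had at most 22.5 in any UDCA pool and 25.5 in any control pool. The summed level of the 6 markers was 1501 to 2747 in UDCA pools and 419 to 1935 in control pools. The part of these 6 markers in the difference of Slc3a1 and Slc7a9 was not tested. A high control pool 5+6 was not particular to small intestine markers. The colonocyte marker Cdx2 had 666.4, 424.5 and 737.4 in UDCA pools and 118.5, 261.6 and 730.9 in control pools. Of the 10 colonocyte markers 7 had positive and 3 negative log2 fold changes, and the groups overlapped in each.

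**Figure D3:**
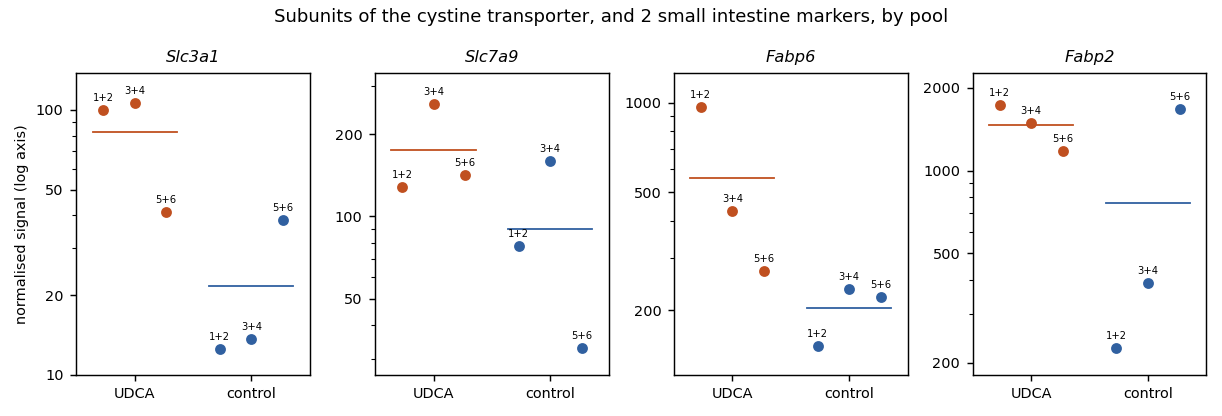
Normalised signal (log axis) of Slc3a1 and Slc7a9, the heavy and light chain of the cystine exchanger, and of the small intestine markers Fabp6 and Fabp2, 1 point per pool with a line at the group mean. Control pool 5+6 lies close to UDCA pool 5+6 for Slc3a1, among the UDCA pools for Fabp2, and is the lowest pool for Slc7a9.

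Of the other heavy chain and its partners above the filter, only Slc7a6 had groups that did not overlap. Slc3a2 encodes the heavy chain shared by most basolateral exchangers. It had 376.0, 445.7 and 319.0 in UDCA pools and 367.4, 363.2 and 331.5 in control pools, a log2 fold change of 0.09 (95% interval -0.22 to 0.39; limma adjusted p = 0.787). Its direction turned without UDCA pool 3+4 (-0.029). Its light chain partners Slc7a6 and Slc7a7 exchange basic for neutral amino acids.

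Slc7a6 had 93.6, 125.3 and 111.9 in UDCA pools and 74.6, 67.7 and 90.6 in control pools, with every UDCA pool higher. This gave a log2 fold change of 0.43 (SE 0.15, 95% interval 0.08 to 0.78; limma adjusted p = 0.316). A second probe set of Slc7a6 had a log2 fold change of 0.22 with overlapping groups. Slc7a7, whose loss in humans causes lysinuric protein intolerance, had 321.9, 280.6 and 401.5 in UDCA pools and 252.2, 272.2 and 304.3 in control pools. Its groups overlapped, and its log2 fold change was 0.25 (95% interval -0.08 to 0.58; limma adjusted p = 0.453). It was 0.12 without UDCA pool 5+6 (limma adjusted p = 0.675) and 0.37 without UDCA pool 3+4 (limma adjusted p = 0.485).

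Slc7a4 belongs by sequence to the cationic amino acid transporter branch of the family. Its signals were 242.6, 236.1 and 252.4 in UDCA pools and 215.4, 197.1 and 195.6 in control pools. The pools of each group lay close together and the groups did not overlap, with a log2 fold change of 0.25 (SE 0.10, 95% interval 0.02 to 0.48; limma adjusted p = 0.344). A second probe set above the filter had 0.23, with groups apart as well, and another, dim one had 0.28.

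All 4 Slc7 genes above the filter had positive log2 fold changes, with a median of 0.34, and they stayed positive on each of the 3 other scalings. Adjusted p-values of Slc7a4, Slc7a6 and Slc7a7 lay between 0.161 and 0.784 over the 15 alternatives in which they were tested, which leave out the upper 25% filter.

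In 3 well-known members of the family that lay below the filter the groups overlapped. Slc7a5, the leucine and other large neutral amino acid exchanger, had 57.9, 97.9 and 68.2 in UDCA pools and 61.3, 50.8 and 74.3 in control pools. Slc7a8, a basolateral carrier of neutral amino acids, had 45.6, 58.6 and 21.8 in UDCA pools and 40.9, 47.2 and 25.7 in control pools. Slc7a1, the main cationic amino acid transporter of most tissues, was below 25 in every pool, with 17.4, 22.1 and 3.8 in UDCA pools and 14.2, 16.1 and 14.8 in control pools. The limma p-values of these 3 genes with no filter lay between 0.366 and 0.809.

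Of the 3 Slc1 genes above the filter, Slc1a1 and Slc1a5 lay lower in all UDCA pools and Slc1a4 did not. Slc1a1 encodes the epithelial glutamate and aspartate transporter, which also carries cysteine. It had 210.5, 320.1 and 349.8 in UDCA pools and 438.1, 426.0 and 395.9 in control pools. UDCA pool 1+2 was lowest, and no UDCA pool reached a control pool. The mean was 293 ± 73.4 in UDCA pools and 420.0 ± 21.7 in control pools (SD, n = 3 each), a log2 fold change of -0.52 (SE 0.18, 95% interval -0.92 to -0.12; limma adjusted p = 0.314). The 2 other probe sets of Slc1a1 had -0.41 with overlapping groups and -0.47 with groups apart. Alone of the genes above the filter whose groups did not overlap, Slc1a1 kept an unadjusted limma p under 0.05 in each of 16 alternatives. Slc1a1 also kept its sign in each, with adjusted p-values from 0.164 to 0.699. As deposited, UDCA pool 3+4 had 373.5 and control pool 1+2 had 370.0. The log2 fold change was smallest without UDCA pool 1+2, at -0.31 (limma adjusted p = 0.586).

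Slc1a5 is a sodium-dependent exchanger of glutamine, alanine, serine and cysteine, and a main route for glutamine into dividing cells. Its signals were 433.0, 475.4 and 508.1 in UDCA pools and 610.8, 706.5 and 538.0 in control pools. The groups stood apart by a small gap, between UDCA pool 5+6 and control pool 5+6. Slc1a5 had a log2 fold change of -0.37 (SE 0.13, 95% interval -0.66 to -0.08; limma adjusted p = 0.314), and the adjusted p ran from 0.137 to 0.805 over the alternatives. Slc1a4, a related exchanger of alanine, serine and cysteine, had 139.2, 73.1 and 155.0 in UDCA pools and 62.7, 77.2 and 126.2 in control pools. UDCA pool 3+4 lay among the control pools. The log2 fold change of Slc1a4 was 0.39 (95% interval -0.27 to 1.06; limma adjusted p = 0.551), and its 2 other probe sets had 0.62 and 0.68. Without single arrays it ran from 0.21, without control pool 1+2 or without UDCA pool 5+6, to 0.68 without UDCA pool 3+4, with 0.64 without control pool 5+6. The limma adjusted p stayed between 0.274 and 0.873 over the 15 alternatives in which Slc1a4 was tested.

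Slc6a14 carries neutral and cationic amino acids with sodium and chloride and is known as an apical transporter of the colon. It had 1580.2, 1474.1 and 2049.8 in UDCA pools and 2058.0, 2566.1 and 2117.4 in control pools. UDCA pool 5+6 nearly reached control pool 1+2. Slc6a14 had a log2 fold change of -0.41 (SE 0.14, 95% interval -0.72 to -0.09; limma adjusted p = 0.314), with adjusted p-values of 0.126 to 0.796 over the alternatives. Its second probe set had the same log2 fold change to this precision, with 856.2, 1696.9 and 2010.0 in UDCA pools and 1917.8, 2080.5 and 1721.6 in control pools, so that its groups overlapped (limma unadjusted p = 0.171).

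Slc6a20a, a proline carrier of the brush border, had 47.3, 35.4 and 56.7 in UDCA pools and 98.1, 95.8 and 56.3 in control pools. Only UDCA pool 5+6 and control pool 5+6 met. The gene lay below the filter, and with no filter its log2 fold change of -0.65 had a limma p of 0.0235 and an adjusted p of 0.454. As deposited its groups did not overlap, with at most 50.3 in UDCA pools and at least 63.0 in control pools.

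The remaining 4 Slc6 genes above the filter carry taurine, creatine, glycine and serotonin, and the groups overlapped in each. Slc6a6, the taurine transporter, had 385.1, 335.9 and 292.2 in UDCA pools and 331.4, 311.5 and 322.0 in control pools, a log2 fold change of 0.06 (95% interval -0.22 to 0.33; limma adjusted p = 0.847). Taurine is a conjugation partner of bile acids in mice.

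Slc6a8, the creatine transporter, had 1911.6, 2046.2 and 1390.0 in UDCA pools and 2007.3, 2227.2 and 1537.4 in control pools. Its log2 fold change of -0.11 (limma adjusted p = 0.793) was 0.016 on the deposited values and 0.008 after median centring. A second probe set of Slc6a8 had -0.50 (limma unadjusted p = 0.0495), with 973.4, 1261.2 and 1068.8 in UDCA pools and 1673.4, 2099.8 and 1077.9 in control pools.

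Slc6a9, a glycine transporter, had 230.8, 235.5 and 258.2 in UDCA pools and 228.3, 231.1 and 212.9 in control pools. Its log2 fold change was 0.10 (limma adjusted p = 0.669), and -0.025 in its second probe set. Slc6a4, the serotonin transporter, had 130.1, 135.5 and 135.1 in UDCA pools and 118.2, 219.2 and 108.4 in control pools. Control pool 3+4 stood above the other 5 pools for Slc6a4, whose log2 fold change was -0.08 (limma adjusted p = 0.898).

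Among the Slc38 carriers, Slc38a10 gave the smallest p of the 16 genes above the filter. It encodes a poorly known member of the sodium-coupled neutral amino acid transporters. Its signals were 421.5, 406.7 and 570.0 in UDCA pools and 664.2, 624.4 and 607.0 in control pools. The groups did not overlap, and UDCA pool 5+6 lay nearest to the control pools. Slc38a10 had a log2 fold change of -0.44 (SE 0.14, 95% interval -0.76 to -0.12; limma adjusted p = 0.314), with adjusted p-values of 0.106 to 0.759 over the alternatives. Its 7 probe sets did not all point the same way. Of the 4 others above the filter, 3 had -0.34, -0.18 and -0.08, while 1 had 0.27, with 147.5, 117.0 and 158.3 in UDCA pools and 79.2, 120.3 and 149.7 in control pools. With the mean of all its probe sets the log2 fold change was -0.17 (limma adjusted p = 0.585).

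Slc38a2 and Slc38a1 take up glutamine, alanine and other small neutral amino acids. Slc38a2, which is known to be induced when amino acids run short, had 889.1, 963.1 and 1005.2 in UDCA pools and 1132.7, 953.0 and 1086.7 in control pools. Its groups overlapped, with a log2 fold change of -0.15 (95% interval -0.38 to 0.09; limma adjusted p = 0.531). It was -0.22 without control pool 3+4 and -0.033 as deposited. Slc38a1 had 137.9, 167.8 and 173.4 in UDCA pools and 131.7, 144.1 and 134.8 in control pools, a log2 fold change of 0.20 (95% interval -0.09 to 0.48; limma adjusted p = 0.488).

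**Figure D4:**
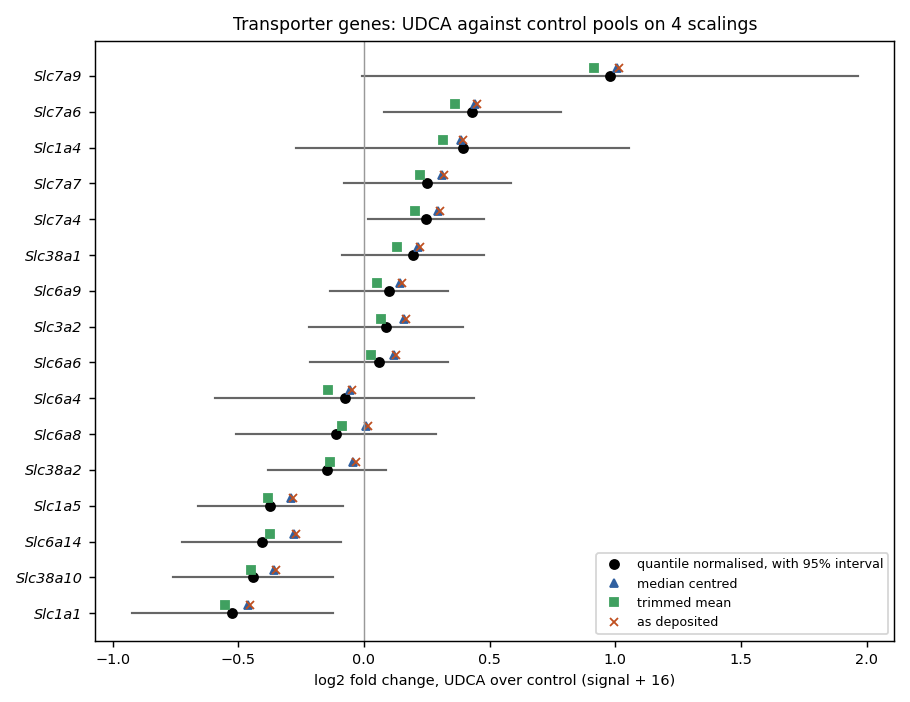
Log2 fold change, UDCA over control, of the 16 transporter genes above the filter, with the 95% interval of the limma fit on quantile normalised values (black) and the values on the 3 other scalings. Only Slc6a8 changes sign between the scalings, and the intervals of Slc1a1, Slc1a5, Slc6a14, Slc38a10, Slc7a4 and Slc7a6 do not reach 0.

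**Figure D5:**
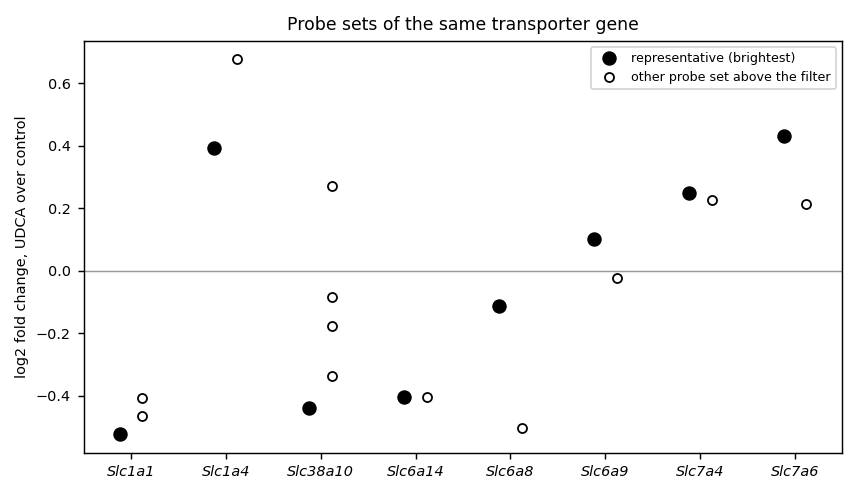
Log2 fold change, UDCA over control, of each probe set above the filter for the 8 transporter genes with more than 1 such probe set (filled: the representative, open: the others). The probe sets of Slc1a1, Slc1a4, Slc6a8, Slc6a14, Slc7a4 and Slc7a6 share a sign within each gene, and those of Slc38a10 and Slc6a9 do not.

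Of the 26 genes below the filter, 12 had means under 10 in both groups and 19 had means under 20. They include the transporters of glial and neuronal glutamate (Slc1a2, Slc1a3, Slc1a6), of dopamine (Slc6a3), noradrenaline (Slc6a2) and GABA (Slc6a13), and of betaine (Slc6a12), and Slc43a3, the single Slc43 member. The files used here hold no detection calls, so these genes are dim and are not called absent. Besides Slc3a1, Slc6a2 was the only dim gene with all UDCA pools higher, at 27.8, 29.7 and 30.9 in UDCA pools and 8.8, 22.8 and 23.4 in control pools. In Slc6a5, a glycine transporter of neurons, and Slc7a10, a small neutral amino acid exchanger, all UDCA pools were lower. Slc6a5 had 2.2, 3.2 and 6.4 in UDCA pools and 7.9, 15.3 and 9.2 in control pools. Slc7a10 had 12.2, 16.2 and 3.3 in UDCA pools and 16.2, 21.1 and 16.3 in control pools, so that UDCA pool 3+4 and control pool 1+2 were equal at this precision, and its groups overlapped as deposited. Groups were thus apart in 15.4% of the dim transporter genes and in 11.6% of all dim probe sets. The limma adjusted p-values of Slc6a2, Slc6a5 and Slc7a10 with no filter were between 0.454 and 0.559.

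Genes of the amino acid response, which the factor ATF4 switches on when amino acids are short and which include transporters, were not called either. Of 20 genes of that list above the filter 0 passed in limma, 7 reached an unadjusted p under 0.05 (13.7% of all probe sets did), and 14 were positive, with a median log2 fold change of 0.09. All UDCA pools were higher than all control pools in 5 of them (10.9% of all probe sets) and lower in 1 (8.34% of all probe sets). Shmt2, a mitochondrial enzyme of serine and glycine conversion, had 328.2, 321.7 and 299.0 in UDCA pools and 213.0, 214.2 and 251.2 in control pools (log2 fold change 0.46; limma adjusted p = 0.264). Asns, which makes asparagine, had 533.1, 505.7 and 519.1 in UDCA pools and 370.5, 328.7 and 417.6 in control pools (0.47; limma adjusted p = 0.264). Phgdh, the first enzyme of serine synthesis, had a log2 fold change of 0.67 with overlapping groups. Nupr1, a stress-induced chromatin protein, had 1466.8, 977.8 and 1322.2 in UDCA pools and 1876.9, 1823.4 and 1985.3 in control pools (-0.61; limma adjusted p = 0.264). Atf4 itself had a log2 fold change of -0.22 with overlapping groups. As deposited, the groups of Shmt2, Asns and Nupr1 were apart too.

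Of the 21 genes on the array of the lysosomal amino acid sensing machinery, which switches on the growth kinase mTORC1, 19 lay above the filter. Of these 0 passed in limma, while 2 reached an unadjusted p under 0.05, where 13.7% of all probe sets did. The 2 dim ones were Castor2 and Rragd. Of the 19 genes 9 were positive, and the median log2 fold change was -0.01. Groups were apart with UDCA pools higher in 2 of the 19 (10.9% of all probe sets) and lower in 1 (8.34%). Lamtor1, the lysosomal anchor of the complex, had 0.26 with all UDCA pools higher, and Deptor, an inhibitor of mTOR, had -0.28 with all UDCA pools lower (limma adjusted p = 0.316 and 0.342). Lamtor3, Lamtor4 and Lamtor5 had 0.27, 0.14 and 0.16, while Lamtor2 had -0.09, with overlapping groups in each. Among the peptide and partner proteins 2 genes lay above the filter, none passed in limma and 0 reached an unadjusted p under 0.05. Slc15a1, the intestinal peptide transporter, had 289.3, 507.5 and 318.5 in UDCA pools and 604.4, 663.6 and 266.6 in control pools, so that control pool 5+6 was the lowest of all 6. Its log2 fold change was -0.39 (95% interval -1.15 to 0.38; limma adjusted p = 0.612), and the lysosomal Slc15a4 had 0.11.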

How the data were processed

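Biotin-labelled cRNA was made from Trizol-extracted RNA and hybridised to Affymetrix arrays, per the labels' protocols. GCOS, software of the array's maker, is named in the submitters' processing notes; the sources used here do not give its version, its scaling target or any detection call. The deposited table holds 1 linear signal intensity for each probe set and array. Its medians and trimmed means (2% off each end) differed between arrays. Each array was therefore quantile normalised as log2(intensity + 16) from the deposited intensities, after 64 Affymetrix control probe sets were left out. "Normalised signal" is this value turned back to the linear scale.

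The upper 50% of probe sets by their mean on the log2 scale (11313, from a signal of about 75.7) were tested with limma 3.58.1 in R 4.3.3 (two-sided; lmFit, then eBayes with its trend option). P-values were adjusted by Benjamini-Hochberg over these probe sets, with a threshold of 0.05. The fit was tested on simulated data. The number of arrays limits the precision.

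Gene names came from the platform annotation, where 20393 probe sets had 1 symbol. The 691 with several symbols were not named, and 1606 had none listed. The members' gene IDs all matched the RefSeq gene table (42 of 42, with the same symbols), and promoter windows of RefSeq (GRCm38.p6) were matched by gene ID for 27 of them. Members, lists and tests were chosen with earlier results of these data known. Values in every pool are given for members past the threshold on any scaling, for the 12 with the smallest p and for a fixed set of main intestinal transporters. The other members above the filter are given too. In each pathway list the 4 genes with the smallest p were taken for naming. Of the fixed set, Slc6a19, Slc36a1 and Slc43a2 were not analysed here, nor was the authors' table of folds. Alternatives were 3 other scalings, pseudocounts of 1 and 64, no filter, the upper 25%, eBayes without trend, a block for the pool number, leaving out single arrays, and averaging the probe sets of each gene.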

Additional observations from a re-analysis of the deposited data

How the results depend on the processing

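The count of called transporter genes was 0 under every alternative run except the values as deposited, where it was 1 (Slc7a9). The groups of Slc7a9 overlapped on that scale. Over all probe sets limma called 78 as deposited, 51 higher and 27 lower, beside 1 after quantile normalization, and 0 with no filter, with the upper 25% by mean and with the replicate block (2314, 787 and 1492 at an unadjusted p under 0.05). With single arrays left out this count ran from 0 to 36, with 36 without control pool 5+6, 6 without UDCA pool 5+6 and 0 without any of the other 4 arrays (754 to 1163 at an unadjusted p under 0.05). The median log2 fold change of the transporter genes was 0.14 as deposited and -0.26 in the upper 25%, which keeps 8 of them, and ran from 0.014 (without UDCA pool 3+4) to 0.11 with single arrays left out. As deposited the median of all probe sets tested was 0.08, and after median centring 0.07. Groups did not overlap in 2 of 16 transporter genes as deposited (7.70% of all probe sets), in 2 of 15 with the mean of probe sets (19.2%) and in 10 of 42 with no filter (15.4%). With single arrays left out the count was 6 to 11, while 24.4% to 38.7% of all probe sets were apart, and 11 without control pool 3+4 (26.7%). Of the 6 genes apart in the main fit, Slc1a1 had an unadjusted limma p under 0.05 in 16 of 16 alternatives. For Slc38a10 this was 14 of 16, for Slc1a5 12 of 16 and for Slc6a14 10 of 16. For Slc7a6 it was 9 of 15 and for Slc7a4 6 of 15. The log2 fold change of Slc3a2 was reversed without UDCA pool 3+4 (-0.029) and ran up to 0.20 with other arrays left out. Pools of the same number did not deviate together in every pair (r = -0.10, 0.16 and 0.05), so the numbers were not taken to pair the samples. For Slc7a9 this choice mattered to the unadjusted limma p, which was 0.00291 with the replicate block (adjusted 0.296). It was 0.0516 without the block (adjusted 0.367). No cause of these shifts was tested.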

Other observations

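Enzymes that use the transported amino acids were not called either. Of 20 on the array 15 lay above the filter, and 0 of these passed in limma. An unadjusted p under 0.05 was reached by 4 of the 15, against 13.7% of all probe sets. Groups were apart with UDCA pools higher in 3 (10.9% of all probe sets) and lower in 1 (8.34%). Of the 15 enzymes 10 were positive, with a median log2 fold change of 0.03. Cps1, which starts citrulline synthesis from ammonia, had 392.9, 310.1 and 398.5 in UDCA pools and 239.5, 222.6 and 217.2 in control pools, which is 0.65 on the log2 scale (SE 0.12; limma adjusted p = 0.264). Oat, which links ornithine to glutamate and proline, had 1225.6, 1038.3 and 1594.0 in UDCA pools and 2022.0, 1778.6 and 1776.8 in control pools, which is -0.55 on the log2 scale (SE 0.15; limma adjusted p = 0.284). Gpt, an alanine transaminase, had 204.5, 298.0 and 208.0 in UDCA pools and 151.0, 175.9 and 172.6 in control pools. Odc1, the first enzyme of polyamine synthesis, had 1685.9, 2035.0 and 1737.0 in UDCA pools and 1488.7, 1400.1 and 1542.0 in control pools. The log2 fold changes of Gpt and Odc1 were 0.45 and 0.29 (limma adjusted p = 0.314 for each). As deposited, the groups of Cps1, Oat and Gpt were apart and those of Odc1 overlapped. The 5 enzymes below the filter were Arg1, Arg2, Bcat1, Gldc and Prodh. Arg2, which splits arginine and is named after its values were seen, had the highest log2 fold change of the list, 0.83, with 72.6, 83.9 and 15.4 in UDCA pools and 21.3, 18.1 and 22.8 in control pools. Its groups overlapped (limma adjusted p = 0.527 with no filter).

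Of 5 genes used as markers of pancreatic acinar cells 3 lay above the filter, Sycn, Cela1 and Clps. Which cells of the colon epithelium pools gave these signals was not tested. All 3 had negative log2 fold changes (median -0.47), and the groups overlapped in each. An unadjusted p under 0.05 was reached by 2 of the 3, against 13.7% of all probe sets. In limma 0 passed, with a lowest adjusted p of 0.336. The summed level of the 5 was 6316 to 8022 in UDCA pools and 6781 to 11735 in control pools. Sycn had 3897.5, 4883.3 and 3449.7 in UDCA pools and 7126.2, 7000.4 and 3929.6 in control pools (log2 fold change -0.52; limma adjusted p = 0.359).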
